A study of Thermothelomyces thermophilus with 49 samples.

Results

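The gene hacA/1 (MYCTH_2310995) of the thermophilic fungus Thermothelomyces thermophilus was followed through a change of carbon source from glucose to cellulose. It is 1 of 9292 genes in the count table, taken by its locus tag, and the study lists it under this name among orthologs of known fungal regulators. The gene spans chr6:3539966-3542415 (2450 bp) of assembly ASM22609v1, and the nearest annotated genes, MYCTH_98458 and MYCTH_2310997, lie 2167 and 2416 bp away, so that no annotated neighbour overlaps it. Poly(A) RNA came from mycelium of 4 strains, namely the parental strain MJK20.3 (Δku80), BS7.8 (Δku80 Δclr1), BS6.4 (Δku80 Δclr2) and JK2.8 (Δku80 Δclr4). The clr genes encode transcription factors known from other filamentous fungi as regulators of cellulase genes, and the ku80 deletion, which all strains carry, impairs non-homologous end joining. Each strain was grown in 2 bioreactor cultures. Every culture was sampled in exponential growth on glucose, at steady state of a chemostat fed with glucose, and 0.5, 1, 2 and 4 h after the feed was stopped and microcrystalline cellulose was added (the cellulose spike). At the spike, part of the broth was replaced by medium without glucose, and the run went on as a batch. No samples come from such a change without cellulose. The paper reports that the parental strain and Δclr4 grew on the cellulose, whereas Δclr1 and Δclr2 did not use it and ceased to grow. Loss of clr1 or clr2 and the halt of growth therefore cannot be told apart after the spike. Each deletion was studied in 1 strain.

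HacA is a basic leucine zipper (bZIP) transcription factor of the unfolded protein response, the pathway by which eukaryotic cells adjust the folding capacity of the endoplasmic reticulum (ER) to the load of secreted proteins. In Saccharomyces cerevisiae the ER membrane protein Ire1 senses unfolded proteins and removes an unconventional intron from the mRNA of the HacA homolog, after which the factor raises transcription of chaperones, protein disulfide isomerases, glycosylation enzymes and components of ER-associated degradation. Filamentous fungi that secrete cellulases carry the same pathway. The counts used here add up all reads of a gene, so the spliced and the unspliced form of the hacA/1 transcript were not told apart. No sequence of the gene was used here.

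The 48 libraries form 24 groups of 2 and held 2567179 to 22212257 counts each. Reads of the deleted gene were at most 1.61 CPM for clr1, 0.161 CPM for clr2 and 0.12 CPM for clr4 in the 12 libraries of the strain that lacks it, against at least 38.9, 1.40 and 133 CPM in all others, and no library went against its label. The parental and Δclr2 libraries were sequenced at one company after column purification and DNase treatment, and those of Δclr1 and Δclr4 at another without these steps. Company and strain cannot be told apart, so levels were tested only between strains of one company. Differences of responses were also tested between strains of different companies, where only a factor that is constant within a company cancels. Values are CPM, the count of a gene scaled to a library of standard size, after TMM normalization, which sets the libraries level by the bulk of their genes. Tests are edgeR's quasi-likelihood test with Benjamini-Hochberg adjustment over 8565 genes and a threshold of 0.05, and an exact permutation test cannot reach that threshold with 2 cultures per group. In bulk RNA, a change in every hypha and a change in the share of hyphae that express the gene cannot be told apart.

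In the parental strain, hacA/1 rose severalfold within 0.5 h of the cellulose spike and was highest after 1 h. At steady state it stood at 555 CPM in culture 1 and 490 CPM in culture 2. It reached 3283 and 3027 CPM after 0.5 h and 5755 and 5293 CPM after 1 h, and then stood at 4119 and 3986 CPM after 2 h and 3007 and 2795 CPM after 4 h. All 8 libraries after the spike lay above both steady state libraries. The rise was 6.04-fold at 0.5 h (log2 change 2.59 ± 0.18 SE, adjusted p = 1.49e-13 by edgeR), and 10.6-fold at 1 h (3.40 ± 0.18). It was 7.76-fold at 2 h (2.96 ± 0.18) and 5.55-fold at 4 h (2.47 ± 0.17, adjusted p = 4.57e-13). Of all tested genes, 33.5, 42.2, 32.8 and 13.7% passed the threshold in either direction at these 4 times. By log2 change at 1 h, hacA/1 ranked 159 of 8565 genes from the top.

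The climb from 0.5 to 1 h was itself past the threshold in the parental strain (0.81 ± 0.17, adjusted p = 0.000756 by edgeR, background 16.6% of genes). The steps down after the peak were -0.45 ± 0.17 from 1 to 2 h and -0.48 ± 0.17 from 2 to 4 h, with adjusted p-values of 0.0533 and 0.0514 (backgrounds 20 and 12.5%). Neither passed the threshold, although the ranges of the cultures did not overlap between these times. Both passed once the culture was fitted as a replicate block (adjusted p = 0.032 and 0.0275).

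The Δclr4 strain followed a similar course. Of hacA/1 its cultures held 598 and 571 CPM in steady state, 4219 and 6885 CPM at 0.5 h and 6862 and 6393 CPM at 1 h. After 2 h they held 3904 and 4015 CPM, and after 4 h 2835 and 3356 CPM. The 2 cultures were far apart at 0.5 h, where culture 2 was already at the level of 1 h. The rise against steady state was 9.50-fold at 0.5 h (3.25 ± 0.18) and 11.3-fold at 1 h (3.50 ± 0.18). It was 6.77-fold at 2 h (2.76 ± 0.18) and 5.30-fold at 4 h (2.40 ± 0.17), with adjusted p-values from 8.76e-17 to 6.47e-13 by edgeR over the 4 times. The shares of all genes past the threshold were 39.9, 49.3, 37.9 and 16.8% at these times.

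Between 0.5 and 1 h the Δclr4 change of 0.26 ± 0.17 did not pass the threshold (adjusted p = 0.316 by edgeR, background 19.3%). Without culture 2 at 0.5 h it was 0.65 with an adjusted p of 0.0135, and without culture 1 it was -0.06. The level then fell by 0.74 ± 0.17 from 1 to 2 h (adjusted p = 0.00105 by edgeR, background 23.7%), and the adjusted p was 0.0544 in a fit of this strain alone. The step from 2 to 4 h was -0.36 ± 0.17 (adjusted p = 0.130, background 19.6%).

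In Δclr1, hacA/1 went down after the spike. The cultures held 641 and 704 CPM in steady state, 458 and 424 CPM at 0.5 h, 349 and 403 CPM at 1 h, 367 and 386 CPM at 2 h, and 397 and 389 CPM at 4 h. All 8 libraries after the spike lay below both steady state libraries. The log2 change was -0.61 ± 0.17 at 0.5 h (adjusted p = 0.00264 by edgeR) and between -0.84 and -0.77 at the later times. In this strain 51.5, 54.5, 55.1 and 54.2% of all genes passed the threshold at the 4 times, so that a call by itself was common. No step between successive times passed (adjusted p from 0.372 to 0.999).

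In Δclr2 the gene rose briefly and then dropped. The cultures held 425 and 503 CPM in steady state, 678 and 665 CPM at 0.5 h, 293 and 332 CPM at 1 h, 359 and 350 CPM at 2 h, and 378 and 465 CPM at 4 h. The 0.5 h libraries lay above and the 1 h and 2 h libraries below both steady state libraries, and those of 4 h overlapped them. The log2 change was 0.53 ± 0.17 at 0.5 h (adjusted p = 0.00868 by edgeR), and 46.9% of all genes passed there. It was -0.57 ± 0.17 at 1 h (adjusted p = 0.00445, background 54.5%). The drop from 0.5 to 1 h was -1.10 ± 0.17 (adjusted p = 9.54e-06, background 21.3%). At 2 h the change of -0.39 ± 0.17 had an adjusted p of 0.0525 (0.0387 under the replicate block), and at 4 h it was -0.14 ± 0.17 (adjusted p = 0.525). The backgrounds there were 51.3 and 47.4%. Both early calls rested on single libraries. The 0.5 h change was 0.42 with an adjusted p of 0.124 without steady state culture 1. The 1 h change had an adjusted p of 0.0706 without steady state culture 2 and 0.0603 without culture 1 at 1 h.

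**Figure D1:**
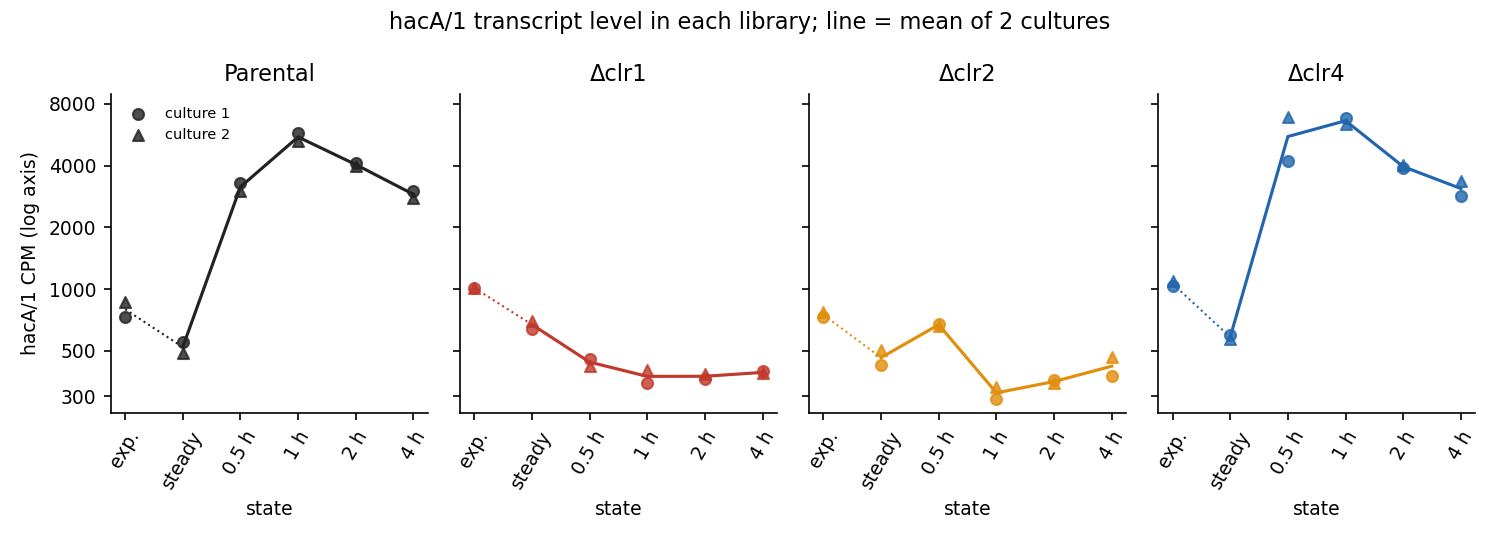
Level of hacA/1 in CPM on a log axis for each of the 48 libraries, by strain and state, with circles for culture 1, triangles for culture 2 and a line through the means. The parental strain and Δclr4 lie at 2795 CPM or more in every library after the spike, and the highest such library of Δclr1 or Δclr2 stands at 678 CPM.

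Averaged over the 4 times, the response was 2.86 ± 0.16 in the parental strain (7.24-fold, adjusted p = 8.5e-16 by edgeR) and 2.98 ± 0.16 in Δclr4 (7.88-fold). It was -0.76 ± 0.12 in Δclr1 (0.589-fold, adjusted p = 2.96e-06) and -0.14 ± 0.13 in Δclr2 (adjusted p = 0.377). For this mean, the shares of all genes past the threshold were 36.6% (parental), 43.9% (Δclr4), 60.9% (Δclr1) and 56.7% (Δclr2). The difference of the mean responses to the parental strain was -3.62 ± 0.20 for Δclr1 (adjusted p = 6.65e-16) and -2.996 ± 0.194 for Δclr2 (adjusted p = 2.5e-13), where 38.5 and 31% of all genes differed. These comparisons share the parental libraries. For Δclr4 the difference was 0.12 ± 0.19 with a 95% interval of -0.26 to 0.50 (adjusted p = 0.934, background 0.0467%). At single times the Δclr4 difference was largest at 0.5 h (0.65 ± 0.23, unadjusted p = 0.00887, adjusted p = 0.333 by edgeR) and between -0.20 and 0.10 at the others. The value at 0.5 h was 0.26 without Δclr4 culture 2 at that time (adjusted p = 0.903) and 0.96 without culture 1 (adjusted p = 0.0587).

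The difference of the mean responses of Δclr1 and Δclr2 was -0.63 ± 0.19 (adjusted p = 0.0511 by edgeR, background 3.92%), just outside the threshold. The adjusted p was 0.0242 under the replicate block, and with single libraries left out it ranged from 0.0324 to 0.361 (the latter without Δclr2 steady state culture 1).

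Levels of strains of one company differed at every time after the spike, and no difference before it passed the threshold. At steady state Δclr2 stood at -0.17 ± 0.17 relative to the parental strain (95% interval of -0.51 to 0.17), and Δclr1 at 0.20 ± 0.17 relative to Δclr4 (-0.13 to 0.54). In exponential growth these differences were -0.09 ± 0.17 (-0.43 to 0.25) and -0.07 ± 0.17 (-0.40 to 0.27). After 1 h Δclr2 stood at -4.14 ± 0.19 relative to the parental strain on the log2 scale (adjusted p = 6.11e-18 by edgeR), and Δclr1 stood at -4.14 ± 0.19 relative to Δclr4. At the other times the differences ranged from -3.51 to -2.23 and from -3.65 to -2.98. All 8 comparisons after the spike passed the threshold, against backgrounds of 28.9, 39.3, 45.8 and 49.2% for Δclr2 and the parental strain and 43.9, 35.3, 41.3 and 54.3% for Δclr1 and Δclr4.

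Exponential growth on glucose gave a moderately higher hacA/1 level than steady state in all 4 strains. The parental cultures held 732 and 865 CPM, Δclr1 1019 and 1011, Δclr2 729 and 771, and Δclr4 1036 and 1091, each above both steady state libraries of its strain. The parental log2 difference was 0.61 ± 0.17 (adjusted p = 0.00352 by edgeR, background 41.9%). For Δclr1 it was 0.59 ± 0.17 (0.00389, background 45.9%), for Δclr2 0.69 ± 0.17 (0.00126, background 38.4%) and for Δclr4 0.86 ± 0.17 (7.32e-05, background 47.8%). The parental call was lost without exponential culture 2 (adjusted p = 0.0621) or steady state culture 2 (0.0587), and the Δclr1 call without steady state culture 1 (0.0653).

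Ordered by their means, the 24 groups fell into a high set and a low set. The 8 groups of the parental strain and Δclr4 after the spike ranked first, from 6628 ± 332 CPM (SD, n = 2) in Δclr4 at 1 h to 2901 ± 149 CPM in the parental strain at 4 h. The 4 exponential groups came next, from 1064 ± 38.8 CPM in Δclr4 to 750 ± 29.9 CPM in Δclr2. Last was Δclr2 at 1 h with 312 ± 27.4 CPM. Neighbours in this order often did not differ beyond their spread, as Δclr4 at 1 h, Δclr4 at 0.5 h and the parental strain at 1 h overlapped in turn. Levels of strains from different companies stand side by side in this order without a test.

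The cellulase load, taken as the share of all gene counts that fell on the 47 cellulase genes in the table (endoglucanases, cellobiohydrolases, β-glucosidases and lytic polysaccharide monooxygenases), was highest at 2 h in the parental strain, later than hacA/1. In the parental cultures the load was 0.214 and 0.172% at steady state, 2.55 and 4.18% at 0.5 h and 8.52 and 10.7% at 1 h. It was 11.3 and 12.2% at 2 h and 9.27 and 8.85% at 4 h. From 1 to 2 h both parental cultures gained load while hacA/1 stood lower, and at 4 h a load near that of 1 h came with 2901 CPM in place of 5524 CPM on average. In Δclr4 the load averaged 0.448% at steady state, 6.51% at 0.5 h, 12.5% at 1 h, 12.5% at 2 h and 9.46% at 4 h.

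In the parental strain and Δclr4 the ratio of hacA/1 CPM to cellulase load therefore fell from steady state to 2 h. Per percent of load the parental cultures held 2591 and 2856 CPM at steady state, 1286 and 724 at 0.5 h, 675 and 496 at 1 h, 364 and 327 at 2 h, and 324 and 316 at 4 h. In Δclr4 the ratio averaged 1390 CPM per percent at steady state, 841 at 0.5 h, 530 at 1 h, 316 at 2 h and 329 at 4 h. The load of Δclr1 averaged 0.555% at steady state and 0.241, 0.238, 0.211 and 0.195% at the 4 times after the spike. Its ratio was higher after the spike, with 1212.5 at steady state and then 1830, 1585, 1811 and 2028. For Δclr2 the ratio averaged 1934 at steady state and then 844, 1027, 1438 and 820. In exponential growth, where the load was 0.0213 to 0.0375% over all strains, hacA/1 was nonetheless above its steady state level. Numerator and denominator come from the same library, so the ratio is a description. The level is scaled by TMM while the load is a share of raw counts, so TMM factors also shift the ratio between libraries.

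**Figure D2:**
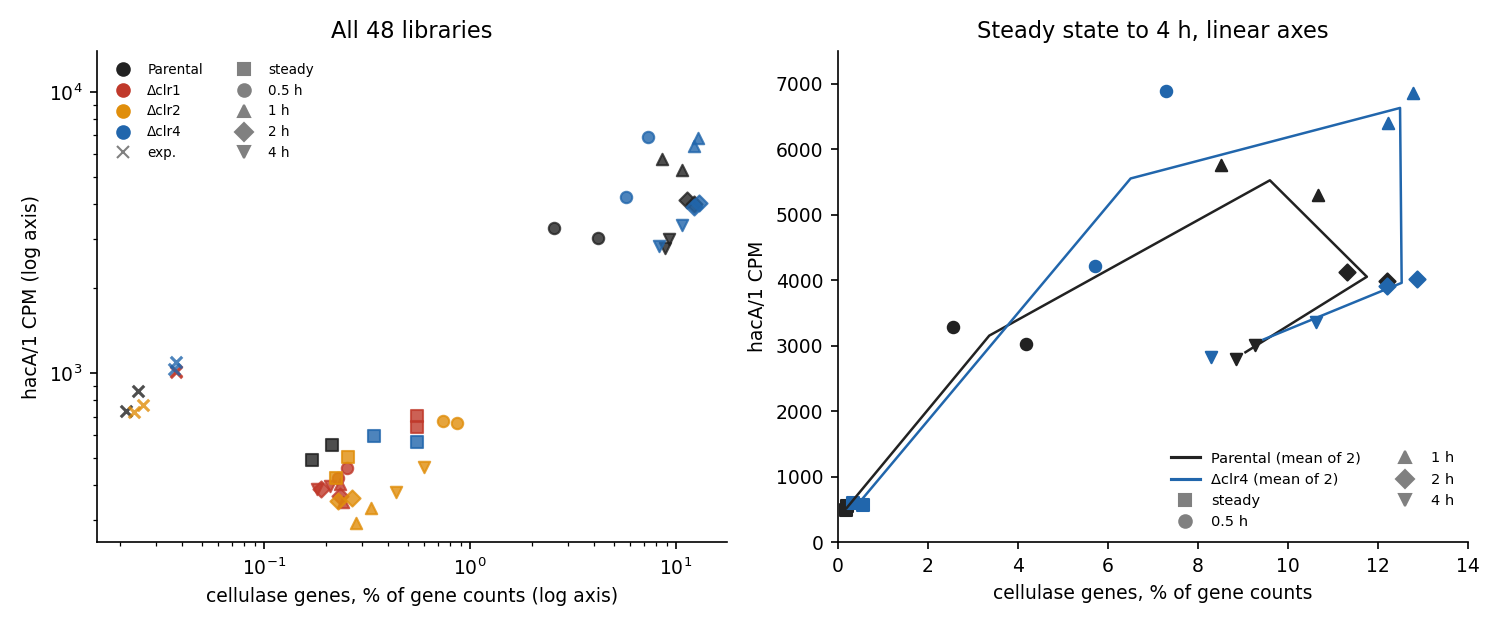
Level of hacA/1 in CPM against the percentage of gene counts on cellulase genes, for all 48 libraries on log axes (left) and for the parental strain and Δclr4 from steady state to 4 h on linear axes with lines through group means in order of time (right). In the right panel the level lies below that at 1 h at a load close to it for Δclr4 at 2 h (12.5% on average at both times) and for the parental strain at 4 h (9.27 and 8.85%, against 8.52 and 10.7% at 1 h).

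Over the 16 libraries of the parental strain and Δclr4 after the spike, log2 level and log2 load had a Pearson r of 0.33 and a Spearman rho of 0.32. Over the 16 of Δclr1 and Δclr2 the values were 0.72 and 0.24. Each of these sets mixes strains of both companies. Within strains (n = 8 each) r and rho were 0.40 and 0.24 for the parental strain, 0.12 and 0.05 for Δclr4, 0.91 and 0.79 for Δclr2, and 0.22 and 0.19 for Δclr1. With hacA/1 scaled to the raw counts outside 4 classes of cell wall degrading enzymes, without TMM, the Δclr1 values turned to -0.34 and -0.19. The rho of Δclr4 turned to -0.02. In the Δclr1 libraries after the spike these classes held 0.525 to 0.737% of counts. How much of the shift came from leaving out TMM was not tested. In Δclr2 the load was 0.739 and 0.863% in the 0.5 h libraries that held the most hacA/1, 0.228 to 0.330% at 1 and 2 h, and 0.439 and 0.597% at 4 h. The points share libraries, depth and cultures, and these values are descriptions.

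The 5 cellulase genes with the highest parental level after the spike were 4 cellobiohydrolases and a β-glucosidase. In the parental strain MYCTH_109566, a cellobiohydrolase, averaged 154 CPM before the spike, 10331 CPM after 0.5 h and 30572 CPM after 1 h. It stood at 29389 CPM at 2 h and 27675 CPM at 4 h, so that it stayed near its peak level while hacA/1 went down. The cellobiohydrolase MYCTH_97137 differed between the parental cultures, with 147 and 1085 CPM at 0.5 h, 2691 and 7338 CPM at 1 h, and 9097 and 15364 CPM at 2 h. It was highest at 2 h in both. Cellobiohydrolases MYCTH_2303045 and MYCTH_66729 were also highest at 2 h, with 16143 and 13646 CPM. The β-glucosidase MYCTH_115968 was at 7833 CPM at 1 h and 3775 CPM at 4 h.

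Ire1 (MYCTH_2308921; chr5:2872697-2876762), the sensor upstream of HacA in yeast, changed less than hacA/1 in the strains that raised hacA/1. In the parental strain it stood at 203 and 246 CPM in steady state, 218 and 249 CPM at 0.5 h, 292 and 359 CPM at 1 h, 238 and 253 CPM at 2 h, and 288 and 296 CPM at 4 h. Its mean response was 0.28 ± 0.18 in the parental strain (adjusted p = 0.253 by edgeR) and -0.29 ± 0.18 in Δclr2 (adjusted p = 0.155). It was 0.62 ± 0.18 in Δclr4 (adjusted p = 0.00600 by edgeR, background 43.9%). In Δclr1, where the mean response of hacA/1 was negative, that of Ire1 was 0.60 ± 0.18 (adjusted p = 0.00577 by edgeR, background 60.9%). The Ire1 changes in Δclr1 at 0.5 and 1 h, 0.44 and 0.23, did not pass (adjusted p = 0.0998 and 0.394 by edgeR). Those at 2 and 4 h, 0.67 and 1.03, did (adjusted p = 0.0112 and 0.000247 by edgeR, backgrounds 55.1 and 54.2%). The Δclr1 cultures at 2 h were far apart for Ire1, with 164 and 311 CPM. The steady state libraries of Δclr4 were uneven for Ire1, with 270 and 148 CPM. Δclr1 and Δclr2 differed in the mean response of Ire1 by 0.89 ± 0.25 (adjusted p = 0.0373 by edgeR, background 3.92%).

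The 12 genes that the study listed under 4 ontology terms for the secretory route all rose, in the parental strain as well as Δclr4, where 15.3 and 18.2% of all genes rose. The terms are protein disulfide isomerase activity, ER-associated ubiquitin-dependent protein catabolism, and integral components of the ER and of the Golgi membrane, the last held by 3 of the 5 ER membrane genes. The study listed these genes because it called them upregulated on cellulose in these same parental libraries, and 7 of them, those of the isomerase and degradation terms, also in Δclr4. The parental and Δclr4 counts, and the direction of differences to the parental strain, were therefore set in large part by the choice of genes and are given as a description. Members of the terms that the study did not call are not in the list. The median of the 12 mean responses was 1.57 in the parental strain and 1.28 in Δclr4, beside -0.06 and -0.05 over all genes. The responses of Δclr1 and Δclr2 did not enter that choice. In Δclr1 1 rose and 6 fell (27.7 and 33.2% of all genes), and in Δclr2 1 rose and 7 fell (26.1 and 30.6% of all genes). The response was lower than the parental one for 12 of 12 genes in Δclr1 and 11 of 12 in Δclr2 (backgrounds 21.9 and 18%). For Δclr4 against the parental strain none of the 12 passed by edgeR or DESeq2 (background 0.0467% by edgeR). By edgeR 2 had an unadjusted p under 0.05, and the share of all genes at that unadjusted threshold was not computed.

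Protein disulfide isomerases form and rearrange disulfide bonds in the ER lumen, and 3 genes were listed under that term. The strongest was MYCTH_2296005, with a mean response of 2.76 ± 0.16 in the parental strain and 2.74 ± 0.16 in Δclr4. In the parental cultures it held 711 and 739 CPM in steady state, 7740 and 5375 CPM at 0.5 h, 7187 and 7513 CPM at 1 h, 4309 and 3331 CPM at 2 h, and 2959 and 3378 CPM at 4 h. In Δclr1 and Δclr2 its mean response was -1.08 ± 0.12 and -0.75 ± 0.12. In Δclr2 it went from 851 and 713 CPM at steady state to 1549 and 1310 CPM at 0.5 h and to 341 and 353 CPM at 1 h, a short rise like that of hacA/1. The other members, MYCTH_2295433 and MYCTH_2313331, had mean responses of 1.81 and 1.84 in the parental strain, and values from -0.16 to 0.32 that did not pass the test in Δclr1 and Δclr2. At 0.5 h in Δclr2, however, MYCTH_2295433 rose by 1.35 ± 0.16 (adjusted p = 1.93e-08 by edgeR, background 46.9%). It then fell by 1.59 ± 0.16 from 0.5 to 1 h. MYCTH_2313331 changed by 0.48 ± 0.26 at 0.5 h in Δclr2 and did not pass.

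ER-associated degradation removes misfolded proteins from the ER to the proteasome. Of its 4 genes, MYCTH_2315513 changed most, with a parental mean response of 2.39 ± 0.20 and one of 2.27 ± 0.20 in Δclr4. The corresponding values were -1.60 ± 0.15 in Δclr1 and -1.39 ± 0.16 in Δclr2. Its parental level was 907 and 919 CPM in steady state, 13164 and 7468 CPM at 0.5 h and 6525 and 6347 CPM at 1 h, and so it was highest at 0.5 h in both cultures, where hacA/1 was highest at 1 h. MYCTH_2302852 followed with 1.84 in the parental strain and -0.97 in Δclr1. MYCTH_2294863 (0.96 in the parental strain) and MYCTH_2295930 (0.96) were the members that rose in Δclr1 (0.37) and in Δclr2 (0.46).

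Among the 5 ER membrane genes, MYCTH_2304920 had the largest parental response (1.82 ± 0.23), followed by MYCTH_2302675 (1.32), MYCTH_2295135 (1.10), MYCTH_2310016 (1.07) and MYCTH_2293961 (0.79). MYCTH_2302675 and MYCTH_2295135, both also under the Golgi term, fell by 1.66 and 1.55 in Δclr1. MYCTH_2293961, the third under both terms, had the weakest response in Δclr4 (0.28, adjusted p = 0.0481 by edgeR).

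From 0.5 to 1 h, when parental hacA/1 rose, 3 of the 12 genes fell and 2 rose in the parental strain (8.38 and 8.24% of all genes). In Δclr4, where the change of hacA/1 over that interval did not pass the threshold, 8 of 12 fell (9.99% of all genes), and all 12 estimates were below 0. The largest of these drops were those of MYCTH_2315513 (-1.51 ± 0.22) and MYCTH_2295433 (-1.42 ± 0.16), both in Δclr4.

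**Figure D3:**
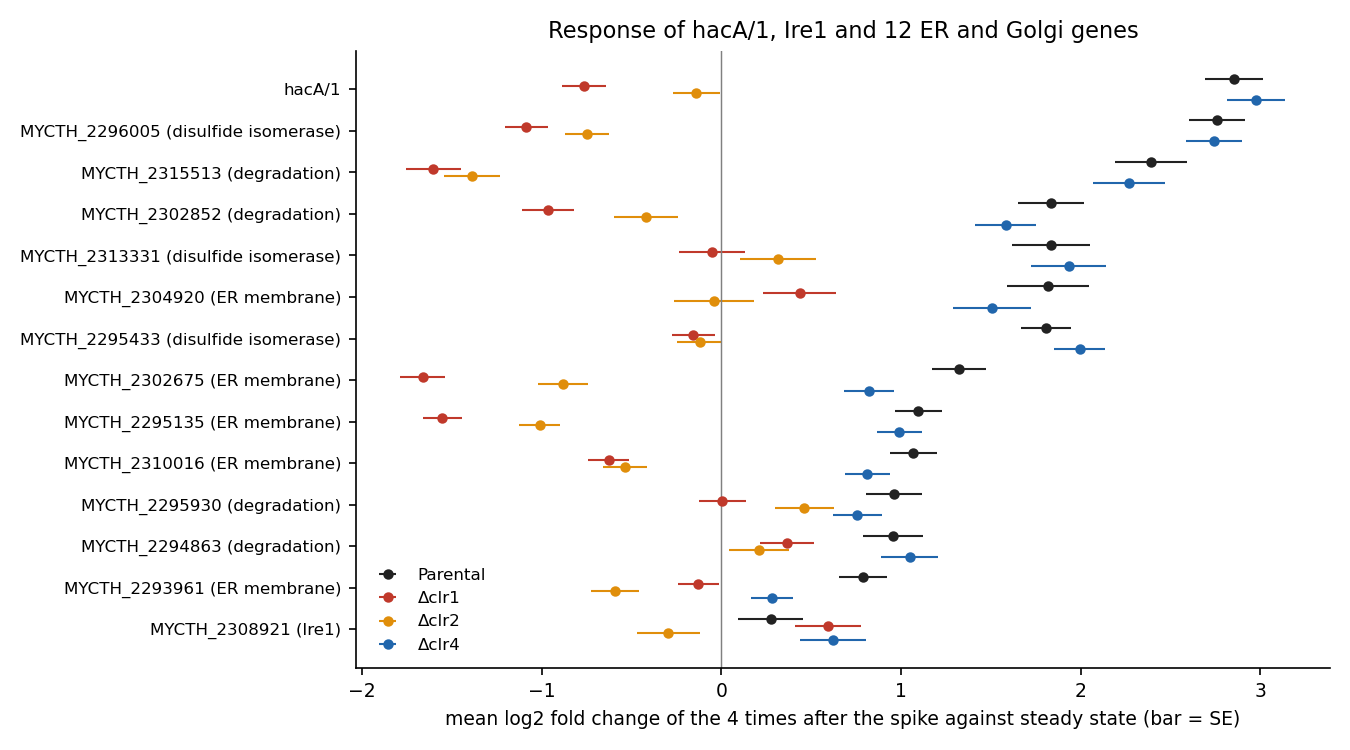
Mean log2 fold change of the 4 times after the spike against steady state, with its standard error, for hacA/1, 12 ER and Golgi genes and Ire1 in the 4 strains. The parental strain and Δclr4 lie to the right of 0 for hacA/1 and all 12 genes, while most values of Δclr1 and Δclr2 lie near or below 0.

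Among 47 genes that the study lists as orthologs of fungal regulators of carbon use and growth, 17 rose and 3 fell in the parental strain (15.3 and 21.4% of all genes), and 19 rose and 5 fell in Δclr4 (18.2 and 25.7% of all genes). In both strains hacA/1 had the third highest response of the 47, after Clr2 (5.57 in the parental strain) and the xylanase regulator Xyr1 (3.71), 2 genes named after their values were seen. The level of hacA/1 per length was high from the start, and per kb of gene span it ranked 4 of 47 at parental steady state (213 CPM per kb). After 1 h it ranked 1 with 2255 CPM per kb, ahead of Xyr1 with 438 and Clr2 with 349 CPM per kb. In Δclr2 the response of Xyr1 stayed high (3.61) while that of hacA/1 did not (-0.14).

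**Figure D4:**
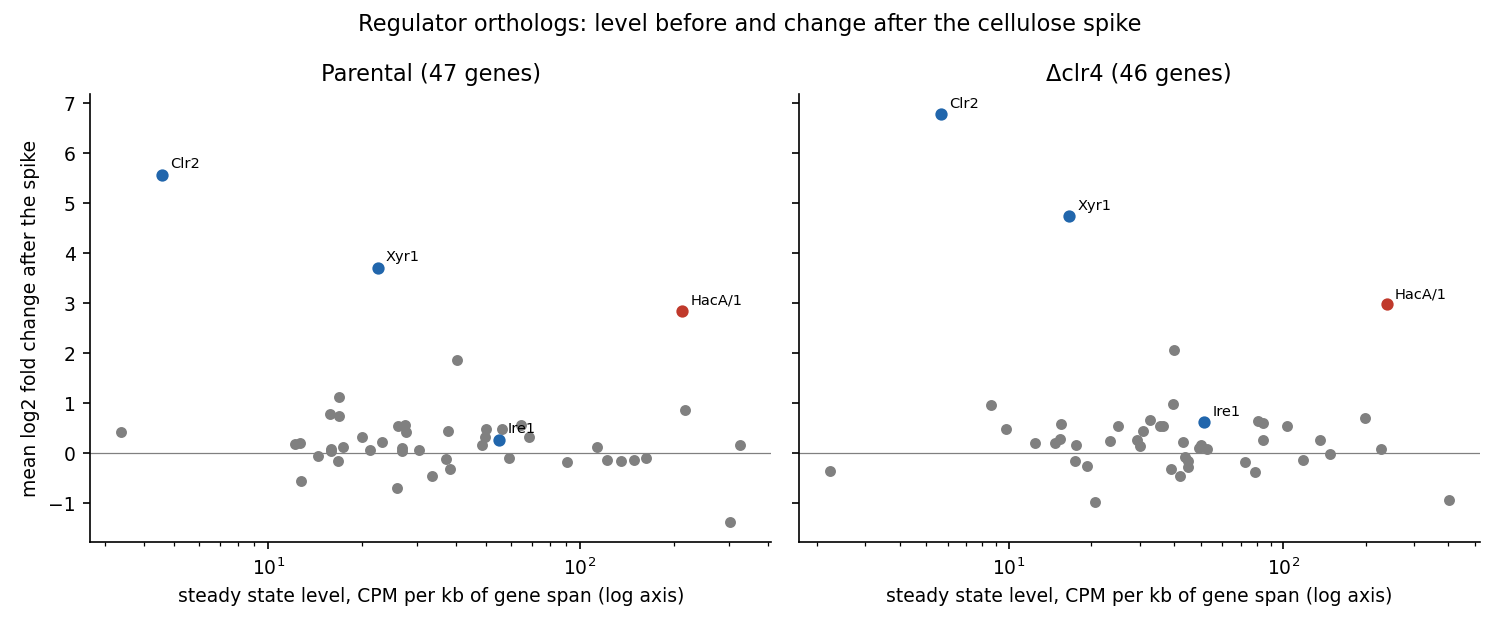
Mean log2 fold change after the spike against the steady state level in CPM per kb of gene span (log axis) for the regulator orthologs in the parental strain and Δclr4, the deleted gene left out of the latter. HacA/1 stands apart at the upper right with 213 CPM per kb and a change of 2.86 in the parental strain, while Clr2 and Xyr1 rise from lower levels and Ire1 lies at 0.28 (parental) and 0.62 (Δclr4).

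Of the 11 other genes predicted to encode bZIP factors, 10 were tested, and MYCTH_2130157 had at most 6 counts in any library. In the parental strain 5 rose and 1 fell (15.3 and 21.4% of all genes), with a median of 0.34. In Δclr4 5 rose and 0 fell by edgeR (18.2 and 25.7% of all genes), where no bZIP gene with a negative response had an unadjusted p under 0.05. MYCTH_49142 had the largest parental response of these (1.59 ± 0.33, from a mean of 4.48 CPM at steady state), and rose about as much in Δclr2 (1.72). In Δclr1 its response was 0.22, lower than the parental one by a difference of -1.37 (adjusted p = 0.0109 by edgeR). MYCTH_2297012 (0.85) and MYCTH_2301171 (0.76) also rose in Δclr1 and Δclr2. None of the 10 had a parental response as large as that of hacA/1. Compared with the parental response, 4 of the 10 were lower and 2 higher in Δclr1 (38.5% of all genes differed). In Δclr2 2 were lower and 1 higher (31% of all genes differed), so a lower response there was not particular to hacA/1.

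Over the 24 group means of log2 CPM, 32 of 6951 compared genes had a Pearson r with hacA/1 of 0.9 or more. Genes were compared if they averaged at least 10 CPM over all 48 libraries. A gene can pass this floor through the groups in which hacA/1 is high, so r is a description only. MYCTH_52463, MYCTH_111372 and MYCTH_102322, named below, stood at log2 CPM of -0.87, -1.18 and 0.27 at parental steady state. Closest was the protein disulfide isomerase gene MYCTH_2296005 (r = 0.97), followed by MYCTH_102322 (0.96), listed by the study as a pectin lyase, MYCTH_2304302 (0.96) and MYCTH_52463 (0.96), another pectin lyase. Next came an endoglucanase, MYCTH_111372 (0.95), and a lytic polysaccharide monooxygenase, MYCTH_80312 (0.95). MYCTH_99098, MYCTH_2312007, MYCTH_2306804 and MYCTH_2308084 (all 0.94) completed the first 10 and carry no name in the lists used. Pattern and size differed, since MYCTH_80312 rose by 9.41 in the parental strain and MYCTH_2306804 by 1.66. The lowest r values were those of MYCTH_2311505 (-0.87), MYCTH_2309146 (-0.85) and MYCTH_45679 (-0.84), with parental log2 differences of -0.81, -0.77 and -0.57. Ire1 ranked 412 with r = 0.53. The groups share cultures and strains, and after centring within strains 7 genes reached an r of 0.9.

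**Figure D5:**
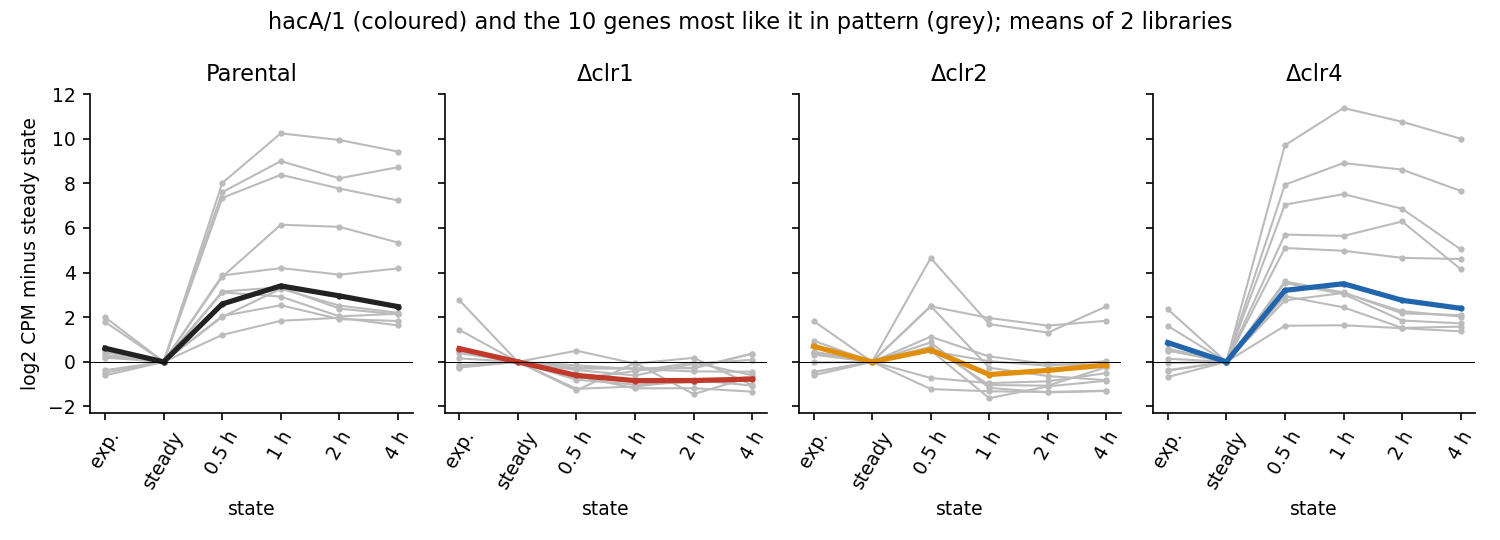
Mean log2 CPM of 2 libraries minus the steady state mean of the same strain, for hacA/1 (coloured) and the 10 genes with the highest r (grey), by strain and state. The 10 genes were chosen for a high r, and their rise averages 1.53 to 10.5 over the 4 times for parental and Δclr4 cultures. All average below 0 in Δclr1, while in Δclr2 they range from -1.29 to 2.54. The genes at these ends, MYCTH_52463 and MYCTH_80312, had low levels in Δclr2, with log2 CPM of 0.31 and -0.77 at steady state. In Δclr1 the steady state log2 CPM was 0.06 for MYCTH_52463, -0.21 for MYCTH_111372 and 0.81 for MYCTH_102322, so their changes there rest on few counts.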

How the data were processed

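Per the labels and the study's methods, the authors isolated RNA with Trizol, sequenced poly(A) RNA as paired ends, trimmed reads where needed and mapped them with STAR. The version and the counting program are not given in the sources used here. The raw counts per gene deposited by the authors were used as they stand, and 6 entries were renamed to locus tags. The deposited normalized values and the authors' own comparisons (fold changes and p-values) were not used. The library of Δclr4 at 4 h, culture 2, run on several flow cells, has 1 column and counted once.

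Genes were filtered with filterByExpr at a minimum count of 10, leaving 8565 of 9292, scaled by TMM and fitted with edgeR 4.0.16 (R 4.3.3) using a coefficient for each of 24 groups. Standard errors are the log2 change divided by the square root of F. Log2 CPM used a prior count of 2. The test was checked on simulated data. Figures were made with matplotlib 3.10.9.

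Library numbers mark the bioreactor within a strain, so the culture was fitted as a replicate block as an alternative. Residuals of libraries from one culture were correlated with a median r (15 pairs per strain) of 0.0396 for parental, 0.217 for Δclr1, 0.0854 for Δclr2 and 0.248 for Δclr4 libraries. DESeq2 1.42.0 and other settings were further alternatives. The gene, the lists and the tests were chosen with earlier results of these data known. Named genes are hacA/1, Ire1, the genes most and least like hacA/1, the ER and Golgi genes, up to 3 bZIP genes and 5 cellulase genes by level. Lists that need protein sequences or product names were not built. Intervals cover the spread between cultures of a group only.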

Additional observations from a re-analysis of the deposited data

Results flagged for a closer look

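The mean response of hacA/1 differed between strains by a test of the difference itself. It was lower than in the parental strain by a log2 difference of -3.62 in Δclr1 and -2.996 in Δclr2. For Ire1 the mean response was higher in Δclr1 than in Δclr2 by 0.89 (adjusted p = 0.0373 by edgeR, background 3.92%). The alternative settings and the refits without single libraries were not run for Ire1. The comparisons of Δclr1 with the parental strain and with Δclr2 are between strains of different companies. Groups of 2 libraries are too small for a check of single outlying samples.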

How the results depend on the processing

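The mean responses of hacA/1 in the parental strain, Δclr1 and Δclr4, the responses at each time in these strains, the differences of Δclr1 and Δclr2 to the parental strain and the 8 level differences after the spike kept direction and call under every alternative run, each library left out in turn included. The step from 2 to 4 h in the parental strain passed with the size factors of DESeq2 in edgeR (-0.53), without the genes of cell wall degrading enzymes (-0.48), with the replicate block for the culture (-0.48) and with DESeq2 (-0.53). The step from 1 to 2 h passed with the replicate block (-0.45) and DESeq2 (-0.44). In Δclr2 the change at 2 h passed without those enzyme genes (-0.40), in the strain alone (-0.40) and with the replicate block (-0.38). In Δclr4 the step from 1 to 2 h was lost in the strain alone (-0.65), and that from 2 to 4 h passed with DESeq2 (-0.39). The difference of Δclr1 and Δclr2 passed in these strains alone (-0.64), with the replicate block (-0.63) and with DESeq2 (-0.61). In Δclr1 the change of 0.00 from 1 to 2 h turned to -0.0445 with the size factors of DESeq2, -0.0447 in DESeq2, -0.0131 without exponential libraries, -0.0120 without the enzyme genes and -0.0190 in the strain alone. The replicate block changed no other hacA/1 call, and the number of genes whose response differed between Δclr4 and the parental strain went from 4 to 15 with it.

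With single libraries left out, the difference of exponential and steady state ranged from 0.48 to 0.72 in the parental strain and from 0.49 to 0.66 in Δclr1. In Δclr2 the response ranged from 0.42 to 0.66 at 0.5 h, -0.68 to -0.44 at 1 h, -0.50 to -0.26 at 2 h and -0.25 to 0.0702 at 4 h. The step from 1 to 2 h in Δclr1 ranged from -0.14 to 0.11 and that from 0.5 to 1 h in Δclr4 from -0.0556 to 0.65. The difference of Δclr1 and Δclr2 ranged from -0.75 to -0.51, that of Δclr4 and the parental strain at 4 h from -0.20 to 0.0476, and the exponential level of Δclr2 against the parental strain from -0.21 to 0.0359. The lone library left in a group is then assumed to vary like the other groups.

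The r of level and load in Δclr1 and Δclr2 was 0.85 with the load from all 4 classes of cell wall degrading enzymes. Genes with an r of 0.9 or more numbered 15 by Spearman's rho and 7 after centring within strains, against 32. Of the first 10, 9 stayed among the first 10 over 48 libraries, 7 after centring and 2 by Spearman's rho. For the ER and Golgi genes, alternatives were chosen after seeing the data. The number higher in Δclr1 was 2 with the replicate block and with DESeq2, and 0 to 2 without single libraries, and in Δclr2 0 to 1. Alternatives for lists that need protein sequences were not run. The cause of these shifts was not tested.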
